A study of Mus musculus with 2 samples.

Results

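The cells described here were barcodes of mouse large intestine stroma that carried RNA of Myoc together with RNA of at least 1 of Gdf10, Inmt and Wt1. They are called members below. A barcode was kept with at least 1000 UMIs (unique molecular identifiers, 1 for each captured transcript), at least 500 genes and no more than 10% mitochondrial UMIs. A kept barcode was a member with at least 1 Myoc UMI, at least 1 UMI summed over Gdf10, Inmt and Wt1, and no UMI of the leukocyte gene Ptprc. There were 508 members among 27768 kept barcodes. The GF library held 234 members among 15066 kept barcodes (1.55%, 95% exact binomial interval 1.36% to 1.76%). The ff library held 274 among 12702 (2.16%, interval 1.91% to 2.42%). The rule used measured Myoc, Gdf10, Inmt, Wt1 and Ptprc counts, so the levels of those genes are a description of the choice. Every other difference between members and other barcodes is likewise given as a description, with no test.

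The study profiled sorted mesenchymal cells of the large intestine with droplet single-cell RNA sequencing (10x Genomics 3' v3.1 chemistry), with 1 library per group. The GF library came from Balb/c mice and the ff library from C57BL/6 mice, and the design text gives adult animals over 8 weeks old and names germ-free mice. Cells of both libraries had been sorted as negative for CD45, EpCAM and CD31, which mark leukocytes, epithelium and endothelium, and positive for podoplanin (gp38), found on the surface of fibroblasts. Germ-free status is given for the GF library only by its name, the abbreviation ff is not spelled out, and the labels do not say how many animals were pooled for a library. Strain, status and library coincide and cannot be told apart, and no difference between the libraries has a replicate check.

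Fibroblasts of the gut wall are known to differ with depth, from cells under the epithelium that make BMP ligands to cells of the submucosa and the adventitia of vessels that make BMP antagonists and elastic matrix. Myoc encodes myocilin, a secreted glycoprotein best known from the drainage tissue of the eye. Gdf10, also called BMP3B, is a secreted member of the TGF-beta superfamily. Inmt encodes an enzyme that methylates indole amines. Wt1 is a zinc finger transcription factor known from mesothelium, kidney podocytes and visceral mesenchyme. Apod, the remaining gene of the label, encodes a lipocalin that binds small lipids and was not part of the rule.

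The sequences just before and at the starts of 3 genes of the rule are shown because the members are defined by their shared RNA. Each line holds 300 bases, 250 before the start and 50 after it, from the RefSeq promoter table of GRCm38.p6, the assembly also called mm10. Capitals mark the letters TATAAA, found in core promoters, or the E-box letters CAGCTG, searched on both strands, and no match overlapped another motif. A promoter of Wt1 was not printed.
Myoc (chr1:162638900-162639199, + strand): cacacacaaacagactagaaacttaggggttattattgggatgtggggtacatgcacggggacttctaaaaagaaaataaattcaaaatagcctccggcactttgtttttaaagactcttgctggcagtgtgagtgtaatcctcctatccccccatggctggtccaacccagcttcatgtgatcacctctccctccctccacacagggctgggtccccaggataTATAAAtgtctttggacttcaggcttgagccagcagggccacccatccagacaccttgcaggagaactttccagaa
Gdf10 (chr14:33923337-33923636, + strand): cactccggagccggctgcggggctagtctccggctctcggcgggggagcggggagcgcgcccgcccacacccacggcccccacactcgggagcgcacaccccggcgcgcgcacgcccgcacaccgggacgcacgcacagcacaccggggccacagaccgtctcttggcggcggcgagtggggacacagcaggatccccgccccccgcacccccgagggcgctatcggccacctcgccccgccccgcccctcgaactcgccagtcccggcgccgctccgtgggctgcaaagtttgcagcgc
Inmt (chr6:55174941-55175240, - strand): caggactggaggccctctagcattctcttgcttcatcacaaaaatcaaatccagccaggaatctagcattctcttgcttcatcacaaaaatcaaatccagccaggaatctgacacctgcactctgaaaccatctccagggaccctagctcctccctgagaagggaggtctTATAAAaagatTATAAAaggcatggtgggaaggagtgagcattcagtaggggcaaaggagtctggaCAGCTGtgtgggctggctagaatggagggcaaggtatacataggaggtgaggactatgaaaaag
Of the 19 genes looked up (the 5 label markers and the genes highest in members), 14 were in the table. Among those 14, TATAAA was present for Myoc, Inmt and Slit2, and CAGCTG for Inmt, Apod, Cilp and Angptl1. TATAAA was present in 13.6% and CAGCTG in 16.3% of all 32851 promoter windows of this length. No window of the 14 held GCGTGGGNG (the letters used for WT1), which 1.90% of all windows held, or GACCNCCCA (the letters used for GLI), which 0.977% held. These are matches of letters in a window and not binding sites.

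The median depth of members was above that of the other barcodes in both libraries. It was 8202.5 UMIs in GF, against 6452 for other GF barcodes, and 9417 UMIs in ff, against 8969.5 for other ff barcodes. In all, the members held 2025395 UMIs in GF and 2703360 in ff. Their median mitochondrial share was 2.82% in GF, against 4.22% in other GF barcodes, and 2.53% in ff, against 3.19% in other ff barcodes. Scrublet, a doublet caller, marked 13 GF members (5.56%) and 12 ff members (4.38%), against 5.09% of all kept GF barcodes and 4.24% of all kept ff barcodes. Doublets were kept, and values without them are among the alternatives. The libraries shared 48 kept barcode sequences, of which 0 were members of GF and 3 were members of ff.

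Most members held few Myoc UMIs, and a minority held many. The median was 2 UMIs in each library. Exactly 1 Myoc UMI was present in 86 GF and 87 ff members, 2 to 4 in 70 GF and 90 ff members, 5 to 9 in 32 GF and 46 ff members, and 10 or more in 46 GF and 51 ff members. The highest member had 112 Myoc UMIs in GF and 56 in ff. At the edge of the rule, 21 members of each library had 1 Myoc UMI and 1 partner UMI only. Just outside it, 139 GF and 136 ff barcodes had Myoc but no partner gene, and 2100 GF and 2048 ff barcodes had a partner but no Myoc. Thinned to 2000 UMIs per barcode, which removes the depth gap, 0.686% of GF barcodes and 0.706% of ff barcodes passed the rule.

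**Figure D1:**
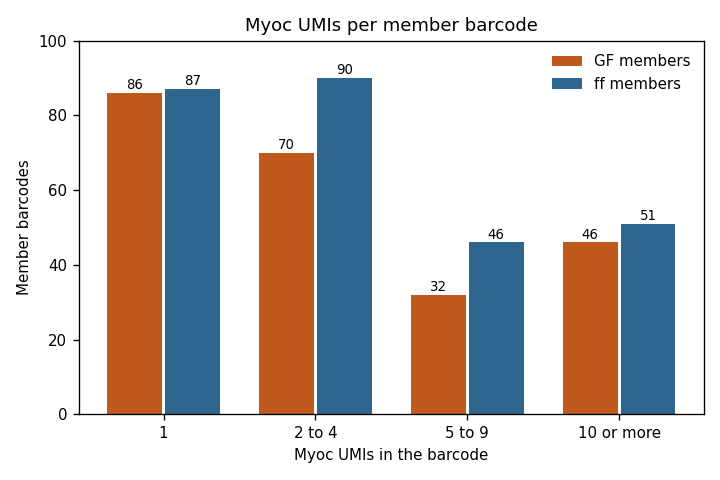
Number of member barcodes (y axis) by the number of Myoc UMIs they held (x axis), GF bars left of ff bars, with the count above each bar. Both libraries have more members with 1 to 4 Myoc UMIs than with 5 or more, and 46 GF and 51 ff members hold 10 or more.

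The partner genes were not carried alike in the libraries. Gdf10 was detected in 60.3% of GF members and 36.9% of ff members, against 6.22% of other GF and 4.88% of other ff barcodes. Detection of Inmt ran the other way, with 59.8% of GF members and 75.9% of ff members, against 9.04% and 13.6% of the other barcodes of GF and ff. The summed level of Inmt, given below, was higher in GF than in ff members. The 10 highest barcodes held 37.1% of the Inmt UMIs in GF and 23.4% in ff members. Wt1 was detected in 32.9% of GF members and 37.6% of ff members, against 2.02% of other GF and 1.24% of other ff barcodes. A single partner gene was present in 123 GF and 160 ff members, and all 3 partners in 13 GF and 24 ff members. Droplets can also hold free RNA. Among barcodes with Ptprc, which should lack Myoc, 0.534% in GF (7 of 1311, median 2907 UMIs) and 1.85% in ff (3 of 162, median 7169 UMIs) had a Myoc UMI, against 2.71% in GF and 3.27% in ff of barcodes without Ptprc. Among members with 1 Myoc UMI, the part of free RNA was not tested.

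The members carried general fibroblast markers at levels near those of the other barcodes. Of 12 such markers, none was at least 2-fold higher or lower in both libraries, and the median log2 ratio of members over other barcodes was -0.06 in GF and -0.39 in ff. At least 5 UMIs of the fibrillar collagens Col1a1, Col1a2 and Col3a1 were present in 232 of 234 GF members and 272 of 274 ff members. Dcn, encoding the collagen-binding proteoglycan decorin, was at 21555 CPM (UMIs per 1000000) in GF members and 20262 CPM in ff members, against 12204 CPM in other GF and 11850 CPM in other ff barcodes. In sums over cells, fewer cells with a transcript and less of it per cell cannot be told apart. Of the 5 label markers, Myoc was at 912 CPM in GF and 631 CPM in ff members, against 6.39 and 3.69 CPM in the others of GF and ff. Gdf10 was at 242 CPM in GF and 106 CPM in ff members, against 23.1 CPM and 12.3 CPM in the others of GF and ff. Inmt was at 587 CPM in GF and 300.4 CPM in ff members, against 61.6 CPM and 44.5 CPM in the others. Wt1 was at 74.1 CPM in GF and 76.2 CPM in ff members, against 5.11 CPM and 2.33 CPM in the others. Apod, which the rule did not use, was at 383 CPM in GF and 405 CPM in ff members, against 61.7 CPM and 27.9 CPM in the others of GF and ff.

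Markers of neighbouring cell types were lower, level or higher in members, depending on the type. Of 12 mesothelial markers, 7 were at 0 UMIs in GF members and 6 in ff members, although Rspo1 of this list was past 2-fold upward. The summed level of that list was 83.4 CPM in GF and 55.5 CPM in ff members, against 30.2 CPM and 35.0 CPM in the others of GF and ff. Of 8 glial and Schwann cell markers, 5 were at 0 UMIs in GF members and 4 in ff members, with summed levels of 4.44 CPM in GF and 3.70 CPM in ff members, against 4.95 CPM and 2.79 CPM in the others of GF and ff. Summed smooth muscle markers were at 303 CPM in GF and 153 CPM in ff members, against 1156 CPM and 1029 CPM in the others of GF and ff. Of the smooth muscle RNA in GF members, 10 barcodes held 90.1% of the Acta2 UMIs, the smooth muscle actin gene. The haemoglobin list had 0 UMIs in GF members and 183 CPM in ff members, against 167 CPM in other GF and 157 CPM in other ff barcodes. In ff members, 10 barcodes held 98.9% of the UMIs of Hbb-bs, a beta globin gene. The part of these transcripts in the results below was not tested.

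A gene is called past the fold below when its level in members was at least 2-fold above, or at least 2-fold below, that in the other kept barcodes and this held for both libraries. Ratios are log2 of members over other barcodes of the same library after adding 1 CPM to each. Of 13772 measured genes, 171 (1.24%) were higher in members and 689 (5.0%) were lower. In GF taken alone, 265 (1.92%) were higher and 1466 (10.6%) lower, and in ff taken alone, 316 (2.29%) and 1124 (8.16%). The members were chosen on this contrast, so nothing is read from these shares. The median ratio over all measured genes was -0.23 in GF and -0.15 in ff, so list medians are read beside these.

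Cdon had the highest mean ratio outside the rule. It encodes a cell surface co-receptor for hedgehog ligands and was at 43.5 CPM in GF and 47.4 CPM in ff members, against 2.49 CPM and 3.45 CPM in the others of GF and ff, with ratios of 3.67 in GF and 3.44 in ff. Its counting intervals, which are taken without the added 1 CPM, ran from 3.76 to 4.48 in GF and from 3.48 to 4.07 in ff. Gas1, another hedgehog co-receptor, was at 466 CPM in GF and 462 CPM in ff members, against 75.1 CPM and 72.5 CPM in the others. Both co-receptor genes were higher in members of each library. Cilp, which encodes a matrix protein first described in cartilage, was at 622 CPM in GF and 623 CPM in ff members, against 106 CPM and 91.6 CPM in the others. UMIs of Cilp were present in 75.2% of GF and 75.9% of ff members, so this was a transcript of most members rather than of a few.

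The 15 highest genes include secreted signals and a receptor component. Penk, the enkephalin precursor, was at 317 CPM in GF and 132 CPM in ff members, against 56.3 CPM and 27.2 CPM in the others. Ramp1, which pairs with the calcitonin receptor-like receptor to bind the neuropeptide CGRP, was at 216 CPM in GF and 107 CPM in ff members, against 38.9 CPM and 25.9 CPM in the others. Ptn, encoding the heparin-binding growth factor pleiotrophin, was at 135 CPM in GF and 137 CPM in ff members, against 18.9 CPM and 22.1 CPM in the others. Slit2, an axon guidance ligand, had ratios of 2.45 in GF and 2.59 in ff. The axon guidance list as a whole did not follow it, with 4 of 29 genes past the fold upward and 9 downward, and medians of -0.46 in GF and -0.35 in ff. Rspo1, an R-spondin that amplifies WNT signals, had ratios of 2.97 in GF and 2.03 in ff. Penk, Ramp1, Ptn, Slit2 and Rspo1 were each past the fold upward.

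The rest of the 15 highest genes span transport, lipid binding and transcription. Atp1b1, a beta subunit of the sodium pump, had ratios of 3.08 in GF and 2.91 in ff. Aoc3, which encodes a copper amine oxidase also known as vascular adhesion protein, was at 105.2 CPM in GF and 85.8 CPM in ff members, against 17.5 CPM and 16.4 CPM in the others. Ebf2, a transcription factor known from adipose and skeletal precursors, had ratios of 2.32 in GF and 2.29 in ff. Angptl1, a secreted angiopoietin-like protein, had 2.24 in GF and 2.26 in ff. Lbp, which encodes lipopolysaccharide-binding protein, was at 224 CPM in GF and 160.2 CPM in ff members, against 63.2 CPM and 30.2 CPM in the others, with ratios of 1.81 and 2.37 in GF and ff.

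**Figure D2:**
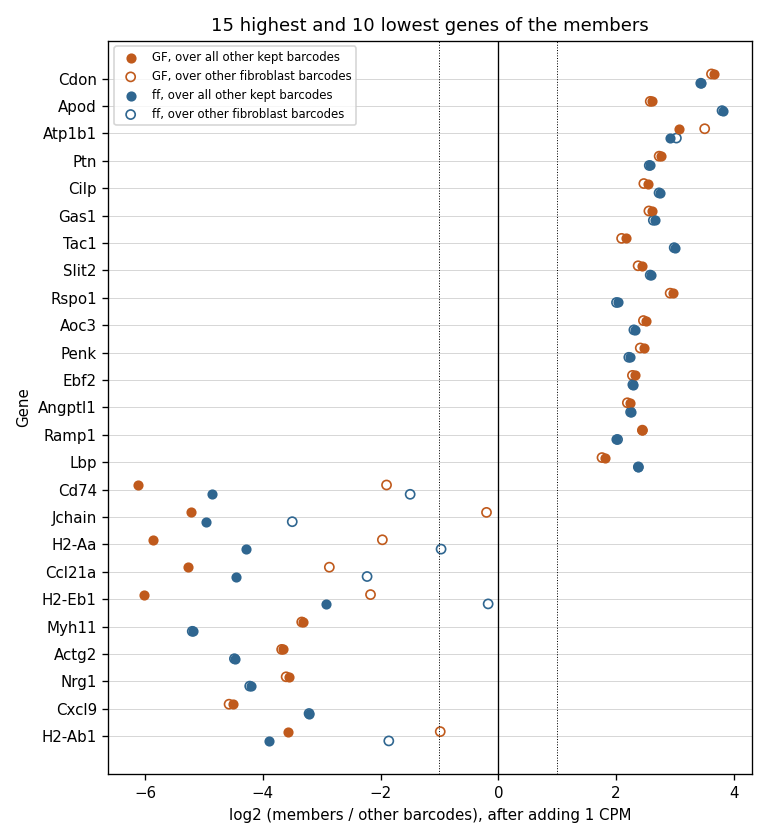
Log2 ratio of members over other barcodes (x axis, after adding 1 CPM) for the 15 highest and 10 lowest genes (y axis), GF above ff, with filled points against all other kept barcodes and open points against other fibroblast barcodes; dotted lines mark 2-fold. The 15 highest genes stay past 2-fold against other fibroblasts, while H2-Aa, H2-Eb1, H2-Ab1, Cd74, Jchain and Ccl21a move toward 0 in at least 1 library.

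Apod, Tac1 and Angptl1 rested in large part on few cells. In ff, a single barcode held 682 of the 1094 Apod UMIs of the members (62.3%), and without that barcode Apod was at 152 CPM in ff members, still above the 27.9 CPM of other ff barcodes. In GF the highest barcode held 87 of 775 Apod UMIs (11.2%), and Apod stood at 340 CPM without it. The 10 highest barcodes held 52.4% of the Apod UMIs in GF members and 85.2% in ff members. Without those 10 barcodes Apod was at 182 CPM in GF and 59.9 CPM in ff members, against 61.7 CPM and 27.9 CPM in the others. Tac1, which encodes the neuropeptide precursor of substance P, was at 156 CPM in GF and 97.3 CPM in ff members, against 33.8 CPM and 11.3 CPM in the others, but was detected in only 9.83% of GF and 9.49% of ff members. The 10 highest barcodes held 75.9% of the Tac1 UMIs in GF members and 78.3% in ff members. Angptl1 was detected in 30 GF and 45 ff members, and the 10 highest barcodes held 63.1% of its UMIs in GF and 55.7% in ff members. Without those barcodes Angptl1 was at 15.3 CPM in GF and 21.5 CPM in ff members, against 7.99 CPM and 9.34 CPM in the others. Ebf2 was detected in 33 GF and 39 ff members, and the 10 highest barcodes held 51.9% of its UMIs in GF and 47.4% in ff members. Without them Ebf2 was at 12.8 CPM in GF and 15.2 CPM in ff members, against 4.54 CPM and 5.10 CPM in the others. For Ptn the 10 highest barcodes held 45.4% in GF and 42.2% in ff members. By comparison, the 10 highest barcodes held 24.4% of Cilp UMIs in GF members and 16.0% in ff members.

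Among the 10 lowest genes, some kept their ratio against other fibroblast barcodes and others did not. Actg2 and Myh11, encoding contractile proteins of smooth muscle, had ratios of -3.66 and -3.31 in GF and -4.47 and -5.18 in ff. Nrg1, an EGF family ligand known from cells near the epithelium, had -3.55 in GF and -4.20 in ff, and Cxcl9, an interferon-induced chemokine, had -4.50 and -3.21 in GF and ff. These 4 genes had much the same ratios against other fibroblast barcodes. The class II antigen presentation genes differed in this respect. Cd74, the invariant chain, had -6.12 in GF and -4.86 in ff against all other barcodes, but -1.90 and -1.50 in GF and ff against other fibroblasts. Jchain, the immunoglobulin joining chain, had -5.23 in GF and -4.96 in ff against all others, but -0.20 and -3.50 in GF and ff against other fibroblasts. H2-Aa, H2-Ab1 and H2-Eb1 were likewise nearer to 0 against fibroblasts in both libraries. Ccl21a, a chemokine of lymphatic endothelium and reticular cells, had 0 UMIs in GF members and 1 in ff members, and its ratio was -5.28 in GF and -4.46 in ff against all others, but -2.87 and -2.23 in GF and ff against other fibroblasts.

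Genes known from cells near the epithelium were lower in members. Of 9 lamina propria markers, 7 were past the fold downward, with a list median of -3.12 in GF and -3.13 in ff. Adamdec1, a metalloprotease of lamina propria stroma, was at 351 CPM in GF and 297 CPM in ff members, against 3062 CPM and 2611 CPM in the others. Of 12 markers of Foxl1-high subepithelial cells, 8 were past the fold downward, with a median of -2.44 in GF and -3.03 in ff. Foxl1 itself had 1 UMI in GF members and 2 in ff members. The adventitial list behaved otherwise, with 1 of 8 genes past the fold upward and none downward. That gene was Pi16, a peptidase inhibitor known from adventitial fibroblasts, at 988 CPM in GF and 625 CPM in ff members, against 409 CPM and 180.0 CPM in the others. Of 8 markers of submucosal trophocytes, the fibroblasts next to crypts that supply Grem1 and R-spondins, Angptl1 and Cd81 were past the fold upward. Grem1 was at 42.0 CPM in GF and 129 CPM in ff members, against 96.4 CPM and 191 CPM in the others, short of the fold in ff.

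In the hedgehog list, 4 of 11 genes were past the fold upward and 1 downward, with a median of 0.32 in both libraries. The 4 were Cdon, Gas1 and Boc, which are co-receptors, and Gpc3, a glypican that binds hedgehog. Boc was at 70.1 CPM in GF and 51.4 CPM in ff members, against 22.7 CPM and 16.7 CPM in the others. Ptch1, the receptor and itself a target of the pathway, went the other way, at 75.0 CPM in GF and 62.9 CPM in ff members, against 249 CPM and 239 CPM in the others. Higher co-receptor RNA and lower Ptch1 RNA thus stood side by side in both libraries.

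More BMP ligand genes were lower than higher in members. Of 13 measured ligands, Gdf10, which the rule used, was past the fold upward, 7 were past it downward and 5 were neither, with a median of -1.36 in GF and -1.77 in ff. Bmp4 was at 189 CPM in GF and 185 CPM in ff members, against 634 CPM and 738 CPM in the others. Bmp5 was at 20.7 CPM in GF and 28.9 CPM in ff members, against 134 CPM and 338 CPM in the others. Bmp2, Bmp3, Bmp6, Bmp7 and Gdf15 were the other genes past the fold downward. Gdf6 was past 2-fold upward in GF only, with ratios of 1.44 in GF and 0.97 in ff, and Inhba, an activin subunit, had 0.69 in GF and -2.57 in ff. Of 13 antagonists, Bmper, a secreted BMP-binding protein, was past the fold upward, with 32 UMIs in GF members and 27 in ff members, and none was past it downward. Of 18 receptors and response genes, Id1, Smad6 and Smad9, which BMP signals are known to induce or use, were past the fold downward and none upward.

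WNT genes were mixed. Of 13 ligands and R-spondins, Rspo1 and Wnt11 were past the fold upward and Wnt2b, Wnt4 and Wnt16 downward. Wnt4 was at 34.1 CPM in GF and 25.2 CPM in ff members, against 217 CPM and 212 CPM in the others. Of 11 secreted inhibitors, Sfrp4 was past the fold upward, and Sfrp2 and Wif1 downward. Sfrp4 was at 153 CPM in GF and 112 CPM in ff members, against 70.1 CPM and 40.2 CPM in the others.

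Growth factor genes were split in the same manner. Of 29 measured, Igf1, Ptn, Fgf18 and Angpt4 were past the fold upward. Igf1 was at 274 CPM in GF and 254 CPM in ff members, against 103 CPM and 122 CPM in the others. Downward were 7 genes, among them Hgf, the hepatocyte growth factor, and the EGF family ligands Ereg, Areg, Nrg1 and Hbegf. Ereg was at 62.7 CPM in GF and 49.9 CPM in ff members, against 353 CPM and 450 CPM in the others. Kitl, the ligand of the Kit receptor, and Fgf10 completed the 7. Of 14 neurotrophic genes, 3 were past the fold upward, Ptn among them, and 2 downward, with a median of 0.33 in GF and 0.67 in ff. The 2 were Gdnf and Ntf3, which encode factors that support neurons.

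Visceral mesenchyme transcription factors were found in both directions. Of 26 measured visceral mesenchyme factors, 8 were past the fold upward and 5 downward. Upward were Wt1, which the rule used, and Gata6, Hand1, Hand2, Meox2, Prrx1, Twist2 and Ebf2. Gata6, a zinc finger factor of visceral and serosal tissue, was at 16.3 CPM in GF and 18.9 CPM in ff members, against 3.58 CPM and 2.60 CPM in the others. Genes past the fold downward included Foxf1, Foxf2, Pitx1 and Isl1. Foxf2, a forkhead factor of gut mesenchyme, was at 7.41 CPM in GF and 5.55 CPM in ff members, against 47.6 CPM and 47.2 CPM in the others. Of 26 measured Hox genes, Hoxb2 to Hoxb7 were past the fold upward and Hoxa13 downward. Hox genes of low number are known to act in more anterior parts of the body than those of high number such as Hoxa13. Hoxb2 was at 12.3 CPM in GF and 13.3 CPM in ff members, against 3.86 CPM and 3.01 CPM in the others, on 25 UMIs in GF and 36 in ff members. Hoxa13 was at 5.92 CPM in GF and 7.40 CPM in ff members, against 22.3 CPM and 29.0 CPM in the others. These levels rest on few UMIs, and neighbouring Hox genes overlap, so reads may not be assigned without error.

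Among metabolic genes, the direction depended on the list. Of 22 methyl transfer and xenobiotic enzymes, 5 were past the fold upward (4 without Inmt, which the rule used) and 1 downward, with a median of 0.60 in GF and 0.47 in ff. Gsta3, a glutathione transferase, was at 131 CPM in GF and 180 CPM in ff members, against 39.6 CPM and 44.2 CPM in the others. Fmo1, a flavin monooxygenase, Cyp1b1, a cytochrome P450, and Sult1a1, a sulfotransferase, were the others upward. Of 15 retinoid genes, 2 were past the fold upward and 2 downward, with a median of -0.77 in GF and -0.41 in ff. Cyp26b1, which degrades retinoic acid, was among those upward. Aldh1a2, which makes retinoic acid, and Rbp4 were past it downward. Cyp26b1 was at 67.6 CPM in GF and 18.1 CPM in ff members, against 9.64 CPM and 4.20 CPM in the others. Aldh1a2 was at 16.8 CPM in GF and 13.7 CPM in ff members, against 61.8 CPM and 39.0 CPM in the others. Of 11 prostaglandin metabolism genes, 1 was past the fold upward and 3 downward, with a median of -0.17 in GF and -0.73 in ff. Ptgis, the prostacyclin synthase and the gene upward, was at 244 CPM in GF and 263 CPM in ff members, against 62.8 CPM and 93.6 CPM in the others. The prostacyclin receptor gene Ptgir and the prostaglandin F receptor gene Ptgfr were also past the fold upward, while the prostaglandin enzyme genes Ptgs1, Pla2g4a and Hpgds and the receptor gene Ptger2 were past it downward.

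Chemokine genes were lower in several cases. Of 18 measured, Cxcl9, Cxcl12, Cxcl13, Cxcl14 and Ccl8 were past the fold downward and Ccl7 upward. Cxcl12, the stromal chemokine of the study's title, was at 339 CPM in GF and 314 CPM in ff members, against 1012 CPM in the others of each library. Ccl7 was at 774 CPM in GF and 913 CPM in ff members, against 352 CPM and 290 CPM in the others. None of 25 interferon-stimulated genes and none of 17 circadian clock genes was past the fold in either direction.

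Matrix genes were found in both directions, and most were short of the fold. Of 18 fibrillar and associated collagens, Col8a2 and Col6a6 were past the fold upward and Col6a5, Col23a1 and Col28a1 downward. Col3a1, the fibrillar collagen III gene, was at 2972 CPM in GF and 2744 CPM in ff members, against 4015 CPM and 4992 CPM in the others, short of the fold. Of 30 matrix glycoproteins, 1 was past the fold upward and 4 downward, and of 21 proteoglycans, 2 upward and 3 downward. Postn, encoding periostin, was at 406 CPM in GF and 443 CPM in ff members, against 1073 CPM and 1993 CPM in the others, past the fold downward. Smoc2, a matricellular protein, was past it upward, at 140.2 CPM in GF and 82.1 CPM in ff members, against 34.9 CPM and 18.3 CPM in the others. Among 27 proteases and inhibitors, Mmp3, Adamtsl3, Serpinf1 and Pi16 were past the fold upward and Pcsk6 and Cpxm2 downward. Mmp3, the stromelysin 1 gene, was at 78.5 CPM in GF and 123 CPM in ff members, against 24.2 CPM and 21.5 CPM in the others. Igfbp6, an IGF-binding protein, was at 2242 CPM in GF and 2221 CPM in ff members, against 784 CPM and 720 CPM in the others. Igfbp3 went the other way, at 191 CPM in GF and 81.7 CPM in ff members, against 1004 CPM and 362 CPM in the others.

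All kept barcodes were next clustered without Myoc, Gdf10, Inmt, Wt1, Apod and Ptprc, so that the genes of the rule could not place the members. Of 30 clusters, 13 held at least 1 member and 17 held none. A cluster with Ptn and Cox8b among its leading genes took 151 of 234 GF members (64.5%) and 160 of 274 ff members (58.4%), against 6.77% of the other GF and 5.78% of the other ff barcodes. A second cluster, led by Pi16, Cilp and Gap43, took 51 GF members (21.8%) and 74 ff members (27.0%), against 8.88% and 8.52% of the others. The remaining members were spread over 11 clusters. Even so, members made up only 13.1% of the GF and 18.2% of the ff barcodes of the Ptn-led cluster, so most of its cells lay outside the rule. The cluster led by Sox6 and Fgfbp1 held 6 GF members (2.56%) and 1 ff member (0.365%), against 0.870% and 1.79% of the others of GF and ff, so its share of members was above that of the others in GF and below it in ff. The cluster led by Wif1 and Sox6 held 0 GF members and 1 ff member, and the cluster led by Col6a5 and Adamdec1 likewise 0 in GF and 1 in ff.

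**Figure D3:**
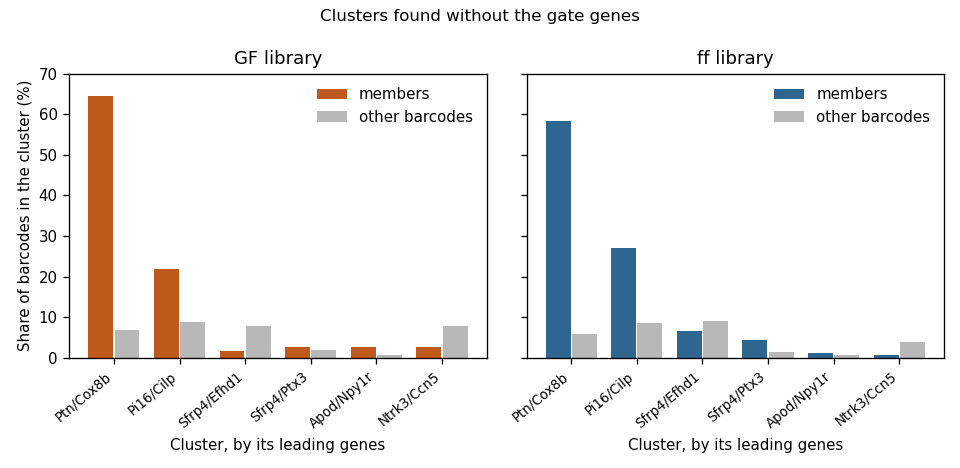
Share of members and of other barcodes (y axis, %) in each of the 6 clusters with the most members (x axis, named by leading genes), GF panel left of the ff panel, with coloured bars for members and grey bars for other barcodes. The Ptn/Cox8b cluster holds 64.5% of GF and 58.4% of ff members, and the Pi16/Cilp cluster 21.8% of GF and 27.0% of ff members.

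Within the Ptn-led cluster, members had little RNA of several genes of the remaining cells. Ces1d, a carboxylesterase, was at 111 CPM in GF and 160.2 CPM in ff members, against 2808 CPM and 2709 CPM in the other cells of the cluster. Kcnn3, a calcium-activated potassium channel known from Pdgfra-positive interstitial cells of gut muscle, was at 29.9 CPM in GF and 33.8 CPM in ff members, against 327 CPM and 368 CPM in the others of the cluster. Adora1, an adenosine receptor, had 0 UMIs in GF and in ff members of the cluster, against 56.9 CPM and 44.5 CPM in the others of the cluster. Genes higher in members than in the rest of that cluster were fewer, 18 of 9322 measured (0.193%) against 188 lower (2.02%). Myoc and Wt1, which the rule used, were past 2-fold upward there. Fgf9, a fibroblast growth factor, was at 67.3 CPM in GF and 52.3 CPM in ff members, against 18.1 CPM and 16.3 CPM in the others of the cluster. Cdon was at 59.1 CPM in GF and 67.7 CPM in ff members, against 18.1 CPM and 24.3 CPM in the others of the cluster. Ptn itself did not follow, at 185 CPM in GF and 207 CPM in ff members, against 212 CPM and 310 CPM in the others of the cluster. Apod was nearly level in GF, at 372 CPM in members against 340 CPM in the others of the cluster. In ff it was at 640 CPM in members against 208 CPM. Of the 1003 Apod UMIs of these ff members, 682 came from the single barcode described above, so the ff level rests largely on that barcode.

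Within the Pi16-led cluster, 9 of 8974 measured genes (0.10%) were higher in members than in the other cells and 86 (0.958%) were lower. Fgf9 was at 146 CPM in GF and 90.8 CPM in ff members, against 34.7 CPM and 27.3 CPM in the other cells.

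Members of the Ptn-led and the Pi16-led clusters differed from each other. Between them, 55 of 4265 measured genes (1.29%) were higher in the Ptn-led members in both libraries and 17 (0.399%) were lower. Wt1 was at 103 CPM in GF and 123 CPM in ff members of the Ptn-led cluster, against 5.62 CPM and 16.1 CPM in those of the Pi16-led cluster, on 2 and 11 UMIs in the Pi16-led members of GF and ff. Aoc3 was at 144 CPM in GF and 119 CPM in ff members of the Ptn-led cluster, against 25.3 CPM and 26.4 CPM in those of the Pi16-led cluster. Ebf2 was also higher in the Ptn-led members, with ratios of 2.45 in GF and 2.59 in ff, on 2 and 4 UMIs in the Pi16-led members. Inmt ran slightly the other way, with ratios of -0.54 in GF and -0.42 in ff. The Pi16-led members had more RNA of Sfrp1, a WNT inhibitor, at 190.1 CPM in GF and 150.0 CPM in ff Ptn-led members, against 664 CPM and 561 CPM in Pi16-led members. Thbs2, encoding thrombospondin 2, was at 111 CPM in GF and 77.2 CPM in ff Ptn-led members, against 419 CPM and 308 CPM in Pi16-led members. Myoc was present in both, at 1167 CPM in GF and 778 CPM in ff Ptn-led members, against 444 CPM and 558 CPM in Pi16-led members.

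Members with many Myoc UMIs were more often in the Ptn-led cluster. With 5 or more Myoc UMIs, 61 of 78 GF members (78.2%) and 68 of 97 ff members (70.1%) were in it, against 51.2% of the 86 GF members and 37.9% of the 87 ff members with 1 UMI. Median depths were 9129.5 UMIs in GF and 9978 in ff for members with 5 or more, against 7585.5 and 8363 for those with 1. Between these bins, 6 of 3762 measured genes (0.159%) were higher and 2 (0.0532%) lower in both libraries. The bins were set on Myoc, which was itself past 2-fold upward between them. Mmp3 was at 132 CPM in GF and 184 CPM in ff members with 5 or more Myoc UMIs, against 38.5 CPM and 64.8 CPM in members with 1. Gas1 was short of the fold in ff, at 727 CPM in GF and 627 CPM in ff members with 5 or more, against 238 CPM and 344 CPM in members with 1. Wt1 was at 98.1 CPM in GF and 104 CPM in ff members with 5 or more, against 41.3 CPM and 45.7 CPM in members with 1. The 2 lower genes were Ereg and Ces1d, with ratios of -2.57 and -1.74 in GF and -1.36 and -1.17 in ff. Isg15, an interferon-stimulated gene, was past the fold upward, with 1.25 in GF and 1.17 in ff. Adamdec1 was short of the fold in ff, at 99.4 CPM in GF and 217 CPM in ff members with 5 or more, against 713 CPM and 369 CPM in members with 1. Inmt was nearly level across the bins, with ratios of 0.07 in GF and 0.12 in ff.

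Other rules of the same form were applied to compare members with related cells. A barcode may pass several rules, and the levels of the other rules leave members out. The Pi16 rule required Pi16 and at least 1 UMI of Dpp4, Sema3c or Cd55, the Kcnn3/Ptn rule Ptn with Kcnn3 or P2ry1, and the Angptl1/Ackr4 rule Angptl1 with Ackr4 or Grem1. Of the members, 165 in GF (70.5%) and 183 in ff (66.8%) also passed the Pi16 rule. Of all kept barcodes, 34.7% in GF and 21.7% in ff passed it. These members made up 3.15% and 6.63% of the Pi16-positive barcodes of GF and ff. The Kcnn3/Ptn rule was shared by 28 GF (11.97%) and 39 ff members (14.2%), against 2.33% and 3.29% of all kept barcodes. The Angptl1/Ackr4 rule was shared by 16 GF (6.84%) and 32 ff members (11.7%), against 2.03% and 3.36% of all kept barcodes. Overlap with the subepithelial Wif1/Bmp3 rule was 2 GF members (0.855%) and 1 ff member (0.365%), against 2.60% and 6.52% of all kept barcodes. With the Col6a5/Adamdec1 rule it was 3 GF (1.28%) and 2 ff members (0.730%), against 10.9% and 5.68% of all kept barcodes.

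Set against Pi16-positive cells, 96 of 11496 measured genes (0.835%) were higher in members in both libraries and 156 (1.36%) were lower. Ptn, Cdon, Atp1b1 and Ramp1 were among the highest, with Ptn at 135 CPM in GF and 137 CPM in ff members, against 11.5 CPM and 18.7 CPM in Pi16-positive cells. Npy1r, a neuropeptide Y receptor, was lower, at 19.7 CPM in GF and 24.0 CPM in ff members, against 107 CPM and 74.7 CPM in Pi16-positive cells. Set against Kcnn3/Ptn-positive cells, 89 of 7972 genes (1.12%) were higher and 223 (2.80%) lower. Pi16 was at 988 CPM in GF and 625 CPM in ff members, against 111 CPM and 55.0 CPM in Kcnn3/Ptn-positive cells. Ramp1 and Slit2 were not higher in members than in these cells. Ramp1 was at 216 CPM in GF and 107 CPM in ff members, against 362 CPM and 230 CPM in Kcnn3/Ptn-positive cells (ratios -0.74 in GF and -1.10 in ff). Slit2 was at 29.6 CPM in GF and 36.3 CPM in ff members, against 35.6 CPM and 42.3 CPM in Kcnn3/Ptn-positive cells. Gdf10 did not separate the members from these cells, at 242 CPM in GF and 106 CPM in ff members, against 220 CPM and 71.4 CPM in Kcnn3/Ptn-positive cells. Set against Angptl1/Ackr4-positive cells, 24 of 7804 genes (0.308%) were higher and 43 (0.551%) lower. The member rule used Myoc, Gdf10, Inmt and Wt1, all past 2-fold upward there, and the other rule used Angptl1, past 2-fold downward. The counts of these 3 comparisons are thus in part fixed by the rules and are not compared. Grem1 was lower, at 42.0 CPM in GF and 129 CPM in ff members, against 307 CPM and 732 CPM in Angptl1/Ackr4-positive cells, and that rule counts Grem1 itself. Levels of Myoc in those cells were 69.2 CPM in GF and 21.1 CPM in ff, with 912 CPM and 631 CPM in members of GF and ff. Cilp, Tac1 and Lbp were short of 2-fold over those cells in both libraries, while Cdon, Gas1 and Ptn stayed past it. Cilp was at 333 CPM in GF and 477 CPM in ff there, Tac1 at 132 CPM and 66.0 CPM, and Lbp at 162 CPM and 121 CPM. Ebf2 was at 26.7 CPM in GF and 28.9 CPM in ff members, against 12.7 CPM and 33.4 CPM in Efhd1/Ackr2/Ildr2-positive cells. Fgf9, a gene of the Foxl1-high list, was not particular to members. It was at 76.5 CPM in GF and 70.3 CPM in ff members, against 59.3 CPM and 89.7 CPM in Angptl1/Ackr4-positive cells. In Wif1/Bmp3-positive cells it was at 227 CPM in GF and 125 CPM in ff. It was lower in Pi16-positive cells (19.8 CPM in GF and 34.8 CPM in ff) and Kcnn3/Ptn-positive cells (3.27 CPM and 15.4 CPM).

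**Figure D4:**
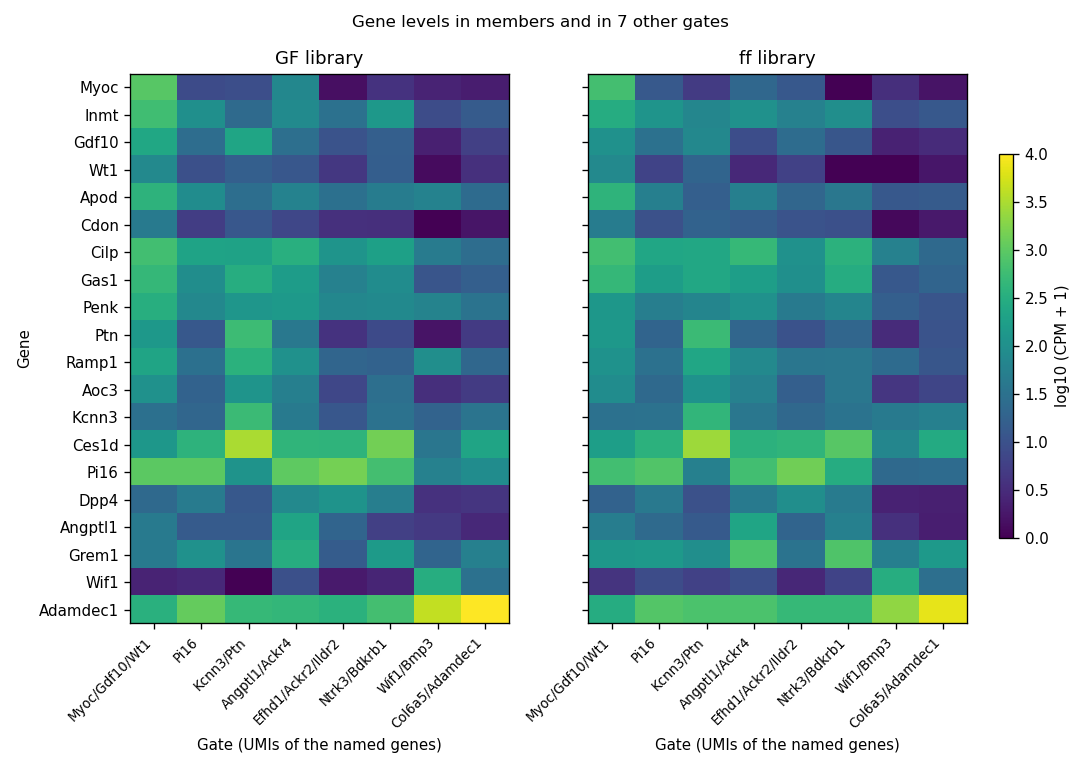
Level of 20 genes (rows) in members and in barcodes of 7 other rules without members (columns), as log10 of CPM + 1 (colour), GF panel left of the ff panel. Pi16 is at 988 CPM in GF and 625 CPM in ff members, and the Pi16-positive column was chosen on Pi16 itself. It is at 1018 CPM in GF and 611 CPM in ff in the Angptl1/Ackr4 column, and at 111 CPM and 55.0 CPM in the Kcnn3/Ptn column. Aoc3 is at 105.2 CPM in GF and 85.8 CPM in ff members, against 115 CPM and 108 CPM in the Kcnn3/Ptn column. Ces1d and Kcnn3 are lower in members than in that column, whose rule counts Kcnn3 itself.

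Between the libraries, members of GF and ff were alike for most of the genes that stood out above. Cilp, Gas1 and Ptn had log2 ratios of GF over ff members of -0.00, 0.01 and -0.02, with counting intervals of -0.11 to 0.10, -0.11 to 0.13 and -0.25 to 0.21. Cdon had -0.12 (-0.53 to 0.28) and Wt1 -0.04 (-0.35 to 0.27). Penk, Gdf10 and Ramp1 were past 2-fold in favour of GF. Penk had 1.26 (1.07 to 1.45), Gdf10 1.18 (0.98 to 1.40) and Ramp1 1.01 (0.80 to 1.24), and in the other barcodes the same ratios were 1.02, 0.85 and 0.57. Inmt had 0.96 (0.84 to 1.10) in members and 0.46 in the others. The intervals cover counting error only.

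Of 7895 genes measured over the members of both libraries, 107 (1.36%) were at least 2-fold higher in GF members and 150 (1.90%) at least 2-fold lower, 257 in all (3.26%). Of the 107, 40 (37.4%) were also past 2-fold in the same direction in the other barcodes, and of the 150, 50 (33.3%). The share of all 7895 genes past 2-fold in the other barcodes is not given here, so nothing is read from this overlap. The widest differences upward were C1rb, Ifi202b, C1s2 and Tpm3-rs7. C1rb, a complement protease copy, had 227 UMIs in GF members and 0 in ff members, at least 101-fold higher in GF when 3 UMIs over the ff members are taken as the floor. C1s2 had 282 UMIs in GF and 3 in ff members, Tpm3-rs7 363 in GF and 7 in ff members, and Ifi202b 246 in GF and 1 in ff members. Their ratios in other barcodes were 6.52 for C1rb, 6.32 for C1s2, 5.76 for Tpm3-rs7 and 5.90 for Ifi202b, so the difference was as wide outside the members. These genes have near-identical relatives (C1ra, C1s1, Tpm3 and other Ifi200 genes), and reads may be shared with them, which was not tested. Strain, status and library coincide for these differences and cannot be told apart.

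Ucp2, Plau, Nr1d1 and Gsta4 were higher in GF members and in the other GF barcodes alike. Ucp2, a mitochondrial carrier, was at 181 CPM in GF and 18.5 CPM in ff members, and at 128 CPM and 26.3 CPM in the others of GF and ff. Nr1d1, a repressor of the circadian clock, was at 48.4 CPM in GF and 9.99 CPM in ff members, and at 50.1 CPM and 6.74 CPM in the others. Nppc and Ctla2a stood wider in the members than outside. Nppc, the C-type natriuretic peptide gene, was at 77.0 CPM in GF and 5.55 CPM in ff members (ratio 3.57), and at 15.1 CPM and 6.89 CPM in the others (ratio 1.03). Only 16 GF members held Nppc UMIs, and 10 of them held 96.2%. Ctla2a, a cysteine protease inhibitor, had a ratio of 2.56 in members and 0.38 in the others, with UMIs in 41 GF and 14 ff members. The 10 highest barcodes held 57.5% of its UMIs in GF and 90% in ff members.

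Among the genes with the lowest ratio of GF over ff were Stmn2, Mpp7, Pttg1, Gprc5a, Ang, Fam111a, Pdxdc1, Cxcl10 and Gstp1. Stmn2, a microtubule regulator, was at 3.46 CPM in GF and 60.7 CPM in ff members, and at 12.5 CPM and 271 CPM in the others of GF and ff. The Stmn2 ratio was -3.79 in members and -4.33 in the others. Its 7 UMIs in GF members came from 3 barcodes. In ff, 36 members held Stmn2, and the 10 highest held 68.3% of its UMIs. A cluster led by Cck and Stmn2 held 0.971% of the other GF and 13.6% of the other ff barcodes. Cxcl10, an interferon-induced chemokine, was at 42.0 CPM in GF and 202 CPM in ff members (ratio -2.24), and at a ratio of -1.09 in the others. Its 85 UMIs in GF members came from 23 barcodes, and 1 of them held 40%. The 10 highest barcodes held 81.2% of the Cxcl10 UMIs in GF and 46.0% in ff members. Gprc5a, an orphan receptor, had -2.90 in members and -1.75 in the others. Gstp1 and Ang have pseudogenes or close relatives, so their counts are uncertain.

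**Figure D5:**
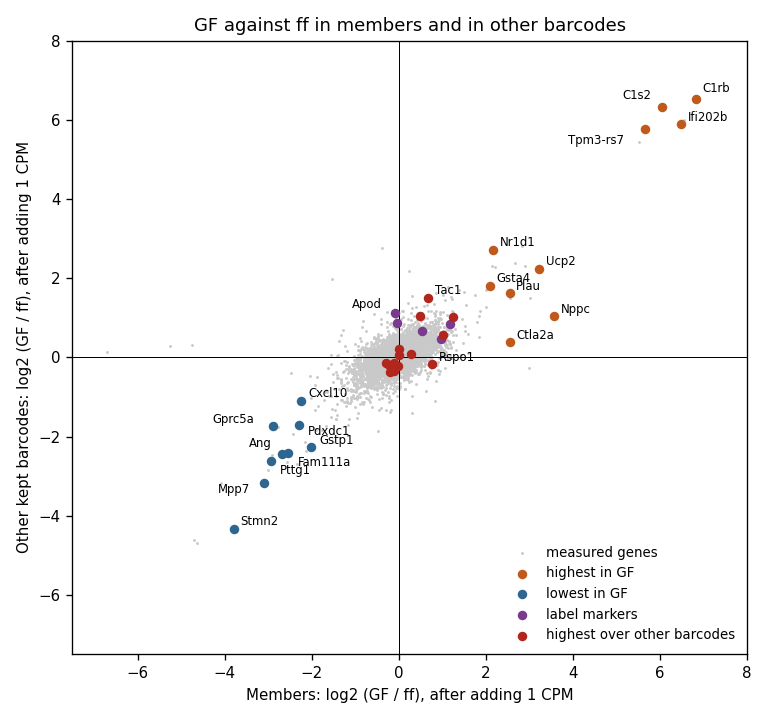
Log2 ratio of GF over ff in members (x axis) and in the other kept barcodes (y axis), after adding 1 CPM, for the measured genes (grey) and the named genes (coloured, by how they were chosen). C1rb, Ifi202b, C1s2 and Tpm3-rs7 lie far up in both, Stmn2 far down in both, while Nppc (3.57 in members, 1.03 in the others) and Ctla2a (2.56 and 0.38) lie mainly along the member axis.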

How the data were processed

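Both deposited tables hold raw UMI counts per Ensembl gene and cell barcode, not normalized by the authors. Per the submitters' processing notes, the tools were Cell Ranger 6.0.0 and the build mm10; settings and annotation release are not stated in those notes. The lowest total was 500 UMIs per barcode. Totals were 105331294 UMIs over 16388 GF barcodes and 119866589 over 13704 ff barcodes. Symbols were matched for 32158 of 32285 genes, and positions come from GENCODE vM21.

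UMIs were summed over members and over the other kept barcodes of each library and expressed as CPM. Cells are not replicates, so no test was made. A gene was measured with at least 50 UMIs in the kept barcodes of each library, or, for GF over ff, over all members. Intervals are exact at the 95% level (Clopper-Pearson, conditional binomial) and cover counting error only. Clusters used 1994 variable genes scaled within library, 30 principal components, 15 neighbours and Leiden resolution 1 (leidenalg 0.10.2, scanpy 1.11.5). The code was tested on simulated counts. Fibroblast barcodes had at least 5 UMIs of Col1a1, Col1a2 and Col3a1.

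Named genes are the 15 highest and 10 lowest mean log2 ratios over both libraries with at least 50 UMIs in members (or expected there), the 10 highest and 10 lowest of GF over ff with at least 100 UMIs, and up to 5 genes per list. Gate, mitochondrial, ribosomal protein, immunoglobulin, T cell receptor, haemoglobin and sex genes and gene models were left out of the rankings. They were not left out of the counts of genes past the fold, so those counts include genes on which cells were chosen. Other genes past the fold in a list were added after their values were seen, as were some genes of the contrasts within clusters and between rules. The members and lists were chosen with earlier results of these data known. A few named genes are not reported here.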

Additional observations from a re-analysis of the deposited data

Results flagged for a closer look

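Csf2, which encodes the cytokine GM-CSF, ran in opposite directions in the libraries. Its log2 ratio of members over other barcodes was -1.52 in GF and 2.39 in ff, a difference of -3.91. GF members held 0 Csf2 UMIs. All 22 Csf2 UMIs of the ff members came from 1 barcode, and the ratio rests on that barcode. The difference between the libraries was not tested. Asb5 and Hp, which are in none of the lists, also passed 2-fold in opposite directions. Asb5 had 1.07 in GF and -1.06 in ff, on 12 UMIs in GF and 4 in ff members, and Hp had -1.35 in GF and 1.05 in ff, on 0 UMIs in GF and 8 in ff members.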

How the results depend on the processing

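No gene ratio or list median past 2-fold changed direction under the 11 alternatives, of which the restriction to members of the Ptn-led cluster was chosen after seeing the data. The share of members moved most with depth and with the rule. It was 2.12% in GF and 2.31% in ff, nearer to each other than the 1.55% and 2.16% reported, with at least 2000 UMIs, at least 1000 genes and at most 5% mitochondrial UMIs. It was 0.843% in GF and 1.11% in ff with at least 2 Myoc and 2 partner UMIs, 0.686% in GF and 0.706% in ff after thinning, and 1.0% in GF and 1.26% in ff for members of the Ptn-led cluster. Counts of genes followed the added CPM and the minimum of UMIs. With 0.1 CPM added, 1228 genes were lower in members. With 10 CPM added, 60 were higher and 184 lower, and 43 were higher and 62 lower in GF than in ff members. Between GF and ff members, thinning gave 44 higher and 73 lower, no minimum gave 500 and 767, and a minimum of 200 UMIs gave 32 and 41. Scaling by the median of ratios moved the ratios of members over others upward by a median of 0.18 in GF and 0.10 in ff. That median is over genes with at least 50 UMIs in members. Of the values for single genes, 682 stayed within their spread and 186 moved, and of the list medians 270 stayed and 93 moved. No paired analysis was possible because there was 1 library per group. With 1 library per group the spread between animals is unknown, and genes near 50 UMIs in the members are limited by depth.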
